A study of Rattus norvegicus with 24 samples.

Results

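The subject of these results is the rat itself: whether a rat whose cortex held more or less of a miRNA than the other rats of its group also held more or less of it in the thalamus. Small RNA libraries of the perilesional cortex and the ipsilateral thalamus were available from 12 rats, so all 24 libraries of the series entered as 12 pairs, matched by the rat number in the labels. A miRNA was included where its mean was at least 10 CPM (counts per 1000000 miRNA reads of the library) in each region, which held for 335 of the 728 miRNAs listed in both tables. Its level was taken as log2(CPM + 1), and the mean of its own group (TBI cortex, Control cortex, TBI thalamus or Control thalamus) was subtracted. What remained, the deviation of 1 rat from its group in 1 region, carried no difference between TBI and Control or between regions, and the cortical deviations were correlated with the thalamic ones over rats.

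The 6 TBI rats had received a lateral fluid-percussion injury, a model of head injury in which a brief pressure wave of fluid is applied to the brain surface through an opening in the skull, and the 6 Control rats had been operated on without the impact. All were adult Sprague-Dawley rats, and tissue was taken 3 months after surgery. The study had picked its TBI rats by a raised T2 signal around the lesion on MRI, so they stand for rats with lasting perilesional inflammation and not for injury at large. Within a rat, the tissue of a region was divided into pieces for extraction and the RNA of that region was then pooled. Each region of each rat gave 1 library.

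MicroRNAs are short RNAs that guide Argonaute proteins to messenger RNAs, mainly through the seed, the bases 2 to 8 from their 5′ end. Many mark a cell type: miR-124, miR-9 and miR-128 are abundant in neurons, miR-143 and miR-145 in vascular smooth muscle, miR-126 in endothelium, miR-451 in red cells, and miR-34b/c, miR-204 and miR-448 in the ciliated ependyma or the choroid plexus, the tissue that makes cerebrospinal fluid. The thalamus is wired to the cortex in both directions and is known to degenerate and inflame after injury to the cortex above it. In bulk tissue, fewer cells of a type and less RNA per cell cannot be told apart.

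The miRNAs on which the results turn are shown here with the seed in capitals, taken from RefSeq (assembly GRCr8). The members of the miR-34 pair, at chr8:60306657-60306679 and chr8:60306133-60306155 on the minus strand, were both 23 bases long, differed at 2 positions outside the seed, and were the only miRNAs among those with a known sequence and an unadjusted p below 0.05 that shared a seed.
miR-34b-5p: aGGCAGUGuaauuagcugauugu
miR-34c-5p: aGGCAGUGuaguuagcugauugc
The next set came from the X-linked cluster of miR-322, miR-503 and miR-450a (chrX:137726162-137726181, chrX:137725899-137725921 and chrX:137720985-137721006, minus strand). It is shown because the mature forms have different seeds while their hairpins lie within 1 cluster.
miR-322-3p: aAACAUGAagcgcugcaaca
miR-503-5p: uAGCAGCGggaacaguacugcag
miR-450a-5p: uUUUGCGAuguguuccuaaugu
The last set is shown for the smallest exact p (miR-203a-3p, chr6:137020756-137020777), the most abundant of the leading miRNAs (miR-9a-5p, of which chr1:142849415-142849437 is 1 of several genomic copies that reads cannot tell apart), and a hairpin whose arms both reached an unadjusted p below 0.05 (miR-411, chr6:134544604-134544624 and chr6:134544639-134544658). These lie on the plus strand.
miR-203a-3p: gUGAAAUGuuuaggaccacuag
miR-9a-5p: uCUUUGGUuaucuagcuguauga
miR-411-5p: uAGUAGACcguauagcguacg
miR-411-3p: uAUGUAACacgguccacuaa

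The libraries held 744564 to 4069284 miRNA reads in cortex and 523298 to 4139901 in thalamus, and the shallowest were the thalamus libraries of Control rat 55 and TBI rat 56. A count of 0 in the shallowest library allowed up to 4.03 CPM in cortex and 5.73 CPM in thalamus (3 reads, counting error only). The neuronal miR-128-3p and miR-9a-5p were among the 3 most abundant miRNAs of each region, and none of the 9 miRNAs of the epithelial miR-200 family reached the 10 CPM minimum in both regions. Summed, these 9 epithelial miRNAs still rose to 138 CPM in a TBI cortex library (group median 16.5) and to 61.8 CPM in a TBI thalamus library (median 18.8). In Control the sum was at most 14.1 CPM in cortex and 22.8 CPM in thalamus. The deviations had a similar spread in both groups, with a median SD over miRNAs of 0.36 log2 units in TBI cortex, 0.33 in Control cortex, 0.45 in TBI thalamus and 0.46 in Control thalamus.

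The cortex and the thalamus of a TBI rat deviated from their groups in the same miRNAs, and no such match was detectable in the Control rats as a group. Pearson's r across the 335 miRNAs between both regions of a rat was 0.687 in TBI rat 22, 0.632 in rat 24, 0.683 in rat 45, 0.601 in rat 52, 0.717 in rat 56 and 0.349 in rat 63. The Control rats gave -0.0673 (rat 26), -0.187 (rat 32), 0.605 (rat 34), 0.323 (rat 38), -0.289 (rat 50) and 0.0427 (rat 55). All TBI values were above 0 and 3 of the 6 Control values were below it, and the groups overlapped because Control rat 34 lay among the TBI rats and TBI rat 63 among the Control rats. Genes are not independent replicates, so these r were tested over rats, by assigning every thalamus to every cortex of the same group. Over all 12 rats the mean was 0.341, and the exact permutation test over 518400 assignments gave p = 0.00179. Over all assignments the mean was -0.00186.

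Taken alone, the TBI rats had a mean same-rat r of 0.611 ± 0.135 (SD, n = 6), the highest of all 720 assignments (exact permutation test, p = 0.00139, the smallest p these can give). The Control rats had 0.0715 ± 0.336 (SD, n = 6), and 234 of the 720 assignments gave a mean at least as high (exact permutation test, p = 0.639). For comparison, a cortex and a thalamus of different rats of a group gave a median r of -0.160 in TBI (range -0.525 to 0.752) and -0.0208 in Control (range -0.636 to 0.659). Deviations within a group sum to 0, so a positive r within rats lowers the r between rats by construction. Among the thalami of its own group, the one most like a rat's cortex was its own in 4 of 6 TBI rats and in 1 of 6 Control rats.

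**Figure D1:**
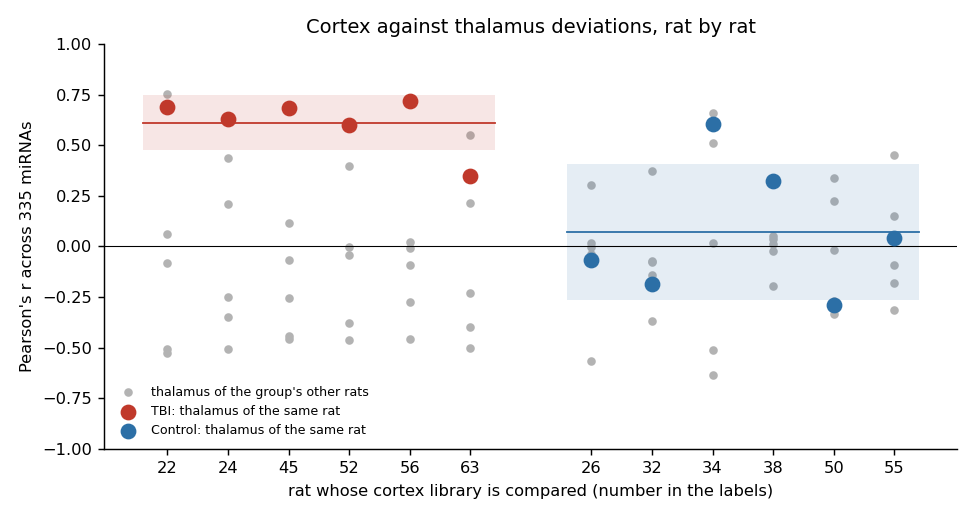
Pearson's r across 335 miRNAs (vertical axis) between the cortical deviations of each rat (horizontal axis, rat number) and the thalamic deviations of the same rat (large points) or of the other 5 rats of its group (grey points); lines and bands are the group mean and SD of the same-rat values. The TBI rats sit between 0.349 and 0.717, the Control rats between -0.289 and 0.605.

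The same-rat r was higher in TBI than in Control by 0.540 (exact permutation test over all divisions of the 12 rats, p = 0.00649, n = 6 in each group). The difference was 0.461 to 0.636 when any 1 rat was left out, 0.673 with library depth as a covariate (exact p = 0.00216) and 0.453 after all libraries were thinned to 523298 reads (exact p = 0.00433). Each library also carried a running number in the headers of the count tables, whose meaning was not stated. The cortex and thalamus of a TBI rat stood 3 to 5 numbers apart (median 4), and those of a Control rat 3 to 17 (median 12.5), a difference of means of -6.67 (exact permutation test, p = 0.0541). The 2 Control rats as near in number as the TBI rats were rat 34 (same-rat r 0.605) and rat 32 (-0.187). With group means removed, the distance in numbers and the same-rat r had r = -0.224 over 12 rats (exact permutation test, p = 0.648). The distance hardly varied within TBI and the gap between the groups was removed, so this r cannot speak to that gap. Between different rats, pairs up to 5 numbers apart had a median r of -0.0446 in TBI (13 pairs) and 0.0136 in Control (7 pairs), and pairs farther apart had -0.228 (17 pairs) and -0.0227 (23 pairs). The part of the running number in the difference between TBI and Control pairs was not tested beyond these values.

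A share of the common deviation lay along 1 axis that also followed library depth. The leading axis (first principal component) of the deviations held 36.5% of their variance in cortex and 52.8% in thalamus. Scores on it correlated between both regions of a rat with r = 0.618 (exact permutation test, p = 0.0354) and Spearman's rho = 0.643 (exact p = 0.0330), and r was 0.541 without TBI rats 56 and 63, the farthest from the median in cortex. Within the TBI rats r was 0.655 and within the Control rats 0.639. In thalamus the score fell with log2 library depth (r = -0.944, exact permutation p = 3.86e-06; rho = -0.930, exact p = 0.000133; r = -0.835 without rats 55 and 56), and Control rat 55 had the highest score, 17.0. In cortex it did so less steeply (r = -0.626, exact p = 0.0306; rho = -0.650, exact p = 0.0289; r = -0.528 without rats 56 and 63). Depth itself correlated between the regions of a rat with r = 0.379 (exact p = 0.258; rho = 0.0839, exact p = 0.811; r = 0.287 without rats 50 and 56), and with r = 0.592 within TBI (exact p = 0.210) and 0.242 within Control (exact p = 0.679).

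With depth as a covariate the axes no longer correlated beyond the threshold (r = 0.204, exact p = 0.544), nor did they with each miRNA divided by its SD (r = 0.485, exact p = 0.118), without rats 55 and 56 (r = 0.339, exact p = 0.387) or without any one of TBI rat 56, Control rat 38 or Control rat 55 alone (0.492 to 0.688 over the 12 rats left out in turn). The mean same-rat r over 12 rats fell to 0.174 with that covariate and no longer passed the threshold (exact permutation p = 0.106), with 0.511 in TBI and -0.162 in Control. It was 0.229 with the leading axis removed from both regions (exact p = 0.0219) and 0.377 without rats 55 and 56 (exact p = 0.00444). Whether depth or the tissue moved the axis was not tested.

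**Figure D2:**
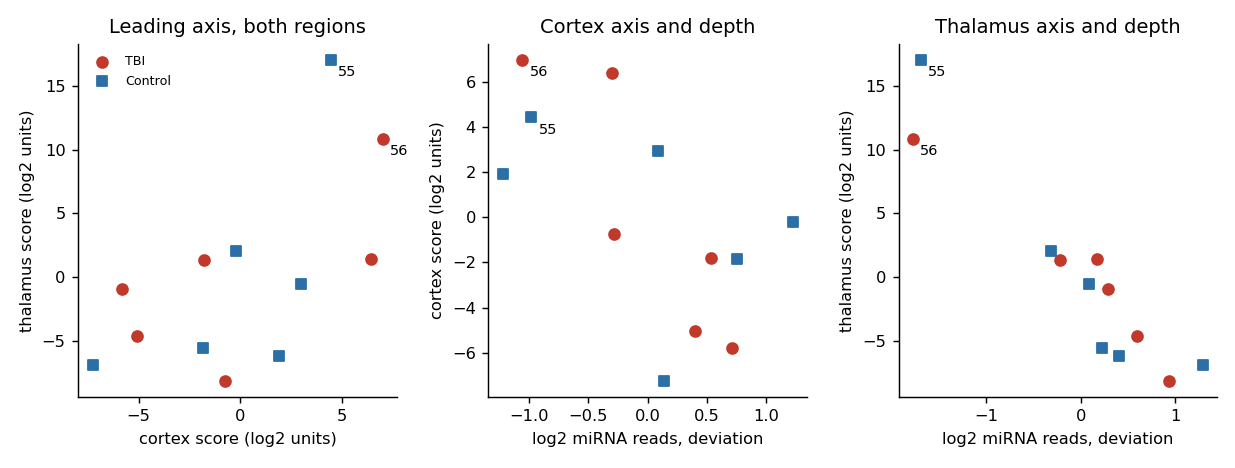
Scores of each rat on the leading axis of the deviations, in log2 units, for thalamus against cortex (left), and for cortex and thalamus against log2 miRNA reads of the library as deviation from the group mean (middle and right); red circles are TBI rats, blue squares Control rats. The thalamus scores fall with depth (r = -0.944) and rats 55 and 56 lie at the shallow end.

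Taken miRNA by miRNA, 275 of 335 (82.1%) had r above 0 over the 12 rats, with a median r of 0.337. A cortical miRNA set against each other thalamic miRNA gave a median r of 0.00133, 50.1% of them above 0. No miRNA passed Benjamini-Hochberg adjustment over the 335 (exact permutation test, smallest adjusted p = 0.0937, 0.0% called), whereas 46 had an unadjusted exact p below 0.05 (13.7% of those tested), all with r above 0. By Spearman's rho 34 did so (10.1%), and 0 passed adjustment (smallest adjusted p = 0.0504). Limma's moderated regression passed 1, miR-34b-5p (adjusted p = 0.00236), and 52 at an unadjusted p below 0.05. With depth as a covariate the median r was 0.152 and 21 miRNAs had an unadjusted p below 0.05, 5 of them with r below 0.

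The match was seldom private to a miRNA. The thalamic partner of the same name had the largest r of all 335 for 7 miRNAs, and at the median 59 thalamic miRNAs correlated better with a cortical miRNA than its own partner did. Split into 3 classes by abundance, the miRNAs had a median r of 0.271, 0.337 and 0.385 from the least to the most abundant. Split by spread they had 0.243, 0.320 and 0.453, with 12, 12 and 22 miRNAs at an unadjusted p below 0.05. The miRNAs that varied most between rats thus held the higher r.

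Over the 6 TBI rats the median r was 0.654 (quartiles 0.422 and 0.790), 315 of 335 (94.0%) were above 0, and 62 (18.5%) were positive at an unadjusted exact p below 0.05. Over the 6 Control rats the median was 0.0179 (quartiles -0.341 and 0.385), 173 (51.6%) were above 0, and 7 (2.09%) were positive and 7 negative at that level. Without the shallow rats 55 (Control) and 56 (TBI), the Control median was 0.250 and the TBI median 0.584. In 274 miRNAs (81.8%) r was larger in TBI. The difference reached an unadjusted exact p below 0.05 in 30 miRNAs (8.96%), of which 28 (8.36%) were larger in TBI, and in none after adjustment (exact permutation test over all divisions of the rats, smallest adjusted p = 0.483, 0.0% called).

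**Figure D3:**
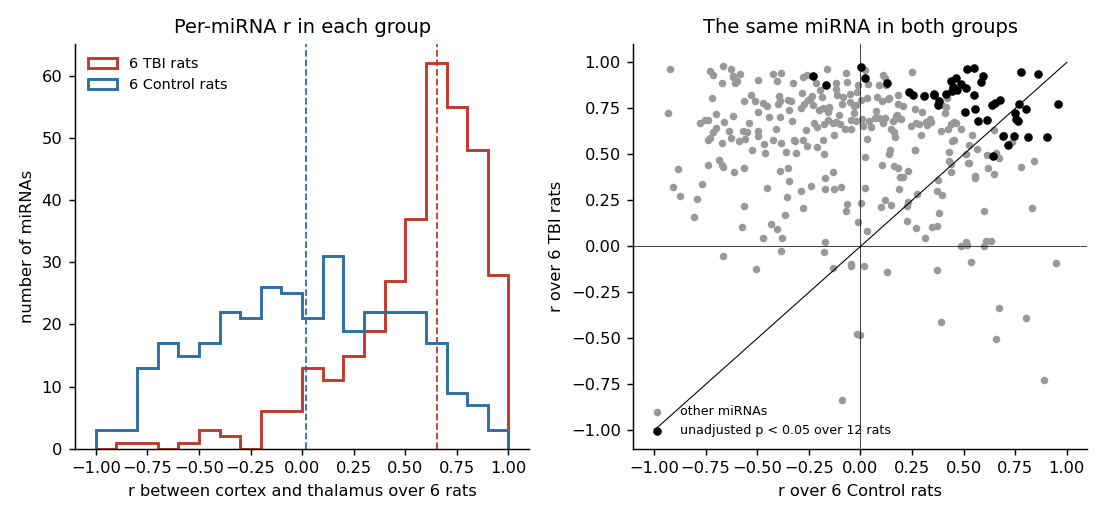
Left, number of miRNAs by Pearson's r between cortex and thalamus deviations over the 6 TBI rats (red) and the 6 Control rats (blue), with dashed medians; right, the r of each miRNA in TBI (vertical) against Control (horizontal), black where the unadjusted exact p over 12 rats was below 0.05. The TBI median is 0.654 and the Control median 0.0179.

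The miRNAs of choroid plexus and ependyma were among those that went together most. Of 17 listed, 8 were tested, all 8 with r above 0 and 5 with an unadjusted p below 0.05 (82.1% and 13.7% over all 335). Their median r was 0.646, against 0.337 over all miRNAs, and it was 0.857 in TBI and 0.457 in Control. Those below 0.05 included both arms of miR-34b and, from the neighbouring hairpin, miR-34c-5p. Both arms of miR-204 were tested as well, so these members do not count as independent of each other. For miR-34b-5p, a miRNA of multiciliated cells, the lowest, median and highest CPM were 12.3, 51.7 and 131 in TBI cortex, 14.3, 27.6 and 41.8 in Control cortex, 41.5, 176 and 581 in TBI thalamus, and 113, 149 and 297 in Control thalamus. TBI rat 45 was the highest of its group in both regions and TBI rats 52 and 63 the lowest in both, while the groups overlapped. Over the 12 rats r was 0.920 (exact permutation test, p = 0.00119; rho = 0.762, exact p = 0.0116), 0.843 without rats 52 and 63, and at least 0.874 with any 1 rat left out. It was 0.950 in TBI and 0.779 in Control.

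The other arms and members followed the same rat less closely. miR-34c-5p, with the seed shown above, ranged from 267 to 1115 CPM in TBI cortex and from 1157 to 6738 CPM in TBI thalamus, both highest in rat 45, and from 168 to 442 and 1162 to 3962 CPM in Control. Its r was 0.704 (exact p = 0.0253; rho = 0.483, exact p = 0.133; r = 0.607 without rats 45 and 26) and 0.429 without rat 45. miR-34b-3p, the other arm of miR-34b, had r = 0.677 (exact p = 0.0240). Chosen after their values were seen, the choroid plexus miRNAs miR-448-3p and miR-204-3p had r = 0.654 (exact p = 0.0267) and 0.637 (exact p = 0.0327).

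Rat 45 carried much of this list. Without it the list's median r was 0.425, with 1 miRNA at an unadjusted p below 0.05, and r fell from 0.586 to 0.0934 for miR-1298 and from 0.533 to -0.0801 for miR-204-5p, both named after their values were seen. The summed level of the 17 miRNAs ran from 1402 to 4570 CPM in TBI cortex and from 2943 to 37050 CPM in TBI thalamus, against 1173 to 3008 and 3599 to 14009 CPM in Control. With depth as a covariate the median r was 0.439 and 1 miRNA stayed below 0.05. How much ventricular tissue each dissected piece held was not measured.

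**Figure D4:**
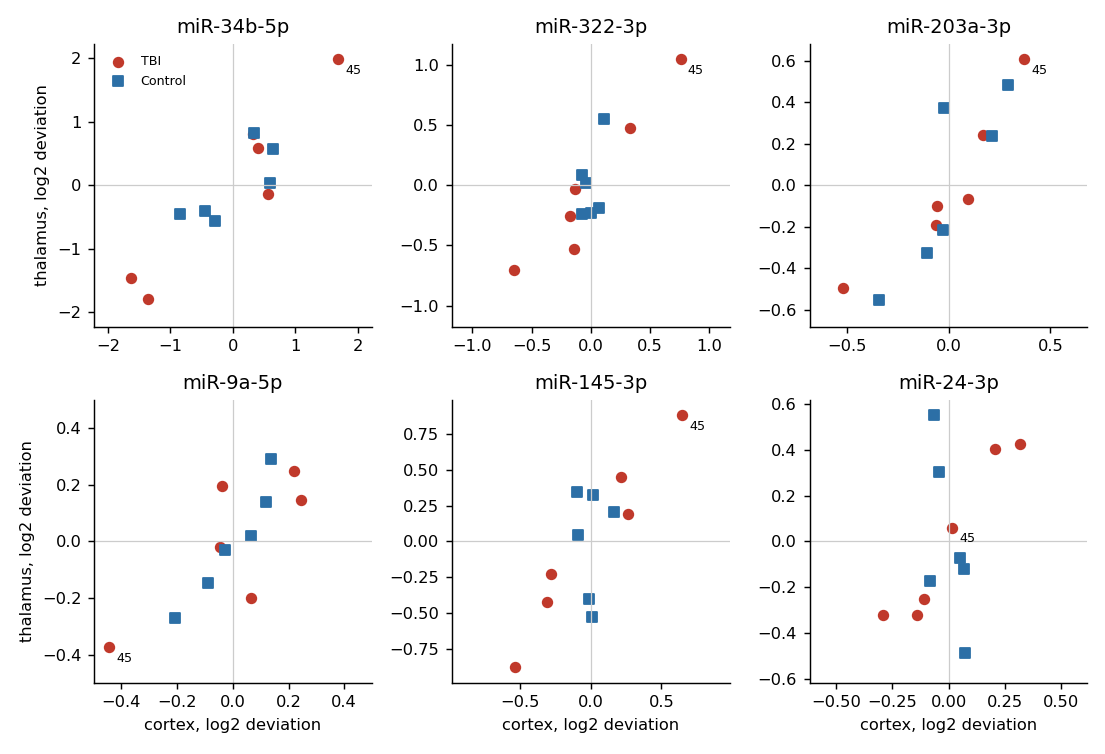
Deviation from the group mean in thalamus (vertical) against cortex (horizontal), both in log2 units, for 6 miRNAs with 1 point per rat (red circles, TBI; blue squares, Control; TBI rat 45 is marked). Points of miR-34b-5p, miR-322-3p, miR-203a-3p and miR-9a-5p rise together over both groups, those of miR-145-3p (r = 0.975) and miR-24-3p (r = 0.961) in the TBI rats, with r = 0.00406 and -0.626 in Control.

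From the X-linked cluster (6 hairpins within chrX:137720933-137726241), 7 mature miRNAs were tested and 3 had an unadjusted p below 0.05 (13.7% over all miRNAs). The median r was 0.540, against 0.337 over all miRNAs, with 0.746 in TBI and 0.515 in Control. The cluster was not on a list. These 3 were already among the 10 miRNAs with the smallest exact p, so their share of the cluster is no independent support. The hairpins are neighbours, and the members are not independent of each other. The miR-15/16/103 list, which holds miR-322 and miR-503, had a median r of 0.145. The 5p arms of miR-322 and miR-503 belong to the miR-15 superfamily, known for restraining the cell cycle, and miR-322-3p is the other arm. The 4 members not below 0.05 had r of 0.145 to 0.540, and the lowest were miR-503-3p (0.145) and miR-322-5p (0.162), named after their values were seen. For miR-322-3p the lowest, median and highest CPM were 77.9, 111 and 208 in TBI cortex, 87.5, 90.8 and 99.8 in Control cortex, 81.8, 121 and 277 in TBI thalamus, and 86.0, 96.2 and 150.0 in Control thalamus. TBI rat 45 was highest and TBI rat 56 lowest in both regions, and the Control cortices were closely spaced. Its r was 0.897 (exact p = 0.00139; rho = 0.818, exact p = 0.00783), 0.739 without rats 45 and 56, and 0.962 in TBI against 0.515 in Control.

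miR-450a-5p, from the other end of the cluster, ranged from 146 to 326 CPM in TBI cortex and from 96.6 to 508 CPM in TBI thalamus, again highest in rat 45. In Control it ranged from 146 to 240.5 CPM in cortex and from 70.7 to 264 CPM in thalamus. Its r was 0.778 (exact p = 0.00479; rho = 0.727, exact p = 0.00777; r = 0.532 without rats 45 and 34). miR-503-5p was scarce, from 5.96 to 21.1 CPM in cortex and from 7.43 to 33.0 CPM in thalamus, and had r = 0.761 (exact p = 0.00642; rho = 0.650, exact p = 0.0356; r = 0.525 without rats 26 and 56). The values of miR-503-5p rested on as few as 4 reads in a library.

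Vessel wall miRNAs had the highest median r of the lists with at least 3 tested members. Of 7 listed, 6 were tested, all 6 with r above 0 and 5 with an unadjusted p below 0.05 (82.1% and 13.7% over all 335). The median r was 0.687 against 0.337 over all miRNAs, with 0.884 in TBI and 0.190 in Control. Of the 6, 4 were arms of the 2 neighbouring hairpins of miR-143 and miR-145, and the rest were the arms of miR-126a. The members are therefore not independent of each other. For the smooth muscle miR-145-3p the lowest, median and highest CPM were 191, 276 and 436 in TBI cortex, 225, 240 and 269 in Control cortex, 125, 229 and 422 in TBI thalamus, and 128, 202 and 235 in Control thalamus. In both regions TBI rat 45 had the most and TBI rat 52 the least, on either side of all Control rats. Its r was 0.821 (exact p = 0.00691; rho = 0.685, exact p = 0.0502; r = 0.546 without rats 45 and 52), 0.975 in TBI and 0.00406 in Control, a difference with an unadjusted exact p of 0.00866 and an adjusted exact p of 0.483.

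Its other arm, miR-145-5p, had r = 0.710 (exact p = 0.0269), with 0.887 in TBI and 0.129 in Control. With the leading axis removed from both regions, miR-145-5p was the 1 miRNA that passed adjustment (exact permutation test, adjusted p = 0.0381). The endothelial miR-126a-3p ranged from 9110 to 15180 CPM in TBI cortex and from 11161 to 20454 CPM in TBI thalamus, with 8480 to 10687 and 9966 to 17147 CPM in Control. Its r was 0.695 (exact p = 0.0124; rho = 0.664, exact p = 0.0282; r = 0.587 without rats 56 and 63). Named after their values were seen, miR-143-3p had r = 0.679 (exact p = 0.0484) but 0.335 without rat 45, and miR-126a-5p had 0.639 (exact p = 0.0361) but -0.123 with depth as a covariate. Over the list the median r was 0.554 with that covariate, 0.549 with TMM scaling (trimmed mean of M-values) and 0.627 without rat 45, with 1, 2 and 3 miRNAs below 0.05. The summed level of the 7 miRNAs ran from 37619 to 61561 CPM in TBI cortex and from 37001 to 64048 CPM in TBI thalamus, against 33752 to 43792 and 31812 to 44418 CPM in Control.

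Outside these lists, miR-203a-3p held the smallest exact p of all. This miRNA is best known from skin, where it promotes keratinocyte differentiation. The lowest, median and highest CPM were 136, 198 and 253 in TBI cortex, 115, 143 and 179 in Control cortex, 72.5, 96.8 and 157 in TBI thalamus, and 58.5, 88.3 and 121 in Control thalamus. TBI rat 45 and Control rat 34 were the highest of their groups in both regions, and TBI rat 56 and Control rat 26 the lowest in both. Its r was 0.886 (exact p = 0.000280, adjusted exact p = 0.0937; rho = 0.923, exact p = 0.000150), 0.854 without rats 56 and 45, 0.935 in TBI and 0.863 in Control. With depth as a covariate it was 0.537 (exact p = 0.0783), and without Control rat 38 miR-203a-3p passed adjustment (exact permutation test, adjusted p = 0.0155).

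The neuronal miR-9a-5p ranged from 68838 to 110964 CPM in TBI cortex (median 94608), from 84701 to 107524 CPM in Control cortex (median 99067), from 56566 to 87012 CPM in TBI thalamus (median 76706) and from 67424 to 99353 CPM in Control thalamus (median 80974). It was lowest in rat 45 in both regions, the TBI rat with the most miR-34b-5p, miR-322-3p and miR-145-3p in both regions. The r of miR-9a-5p was 0.812 (exact p = 0.00224; rho = 0.783, exact p = 0.00707; r = 0.727 without rats 45 and 63), and here Control, at 0.958, was not below TBI, at 0.771. The difference between the groups had an exact p of 0.333.

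Of the 10 miRNAs with the smallest exact p, 4 stayed below 0.05 unadjusted with depth as a covariate: miR-34b-5p, miR-9a-5p, miR-503-5p and miR-378b. After thinning to the shallowest library 6 of the 10 did so, with r down to 0.196 (miR-30d-3p). With TMM and with DESeq2 factors 7 did so, with r of at least 0.378 and 0.499. For miR-378b, whose reads cannot be fully told apart from those of the near-identical miR-378a, CPM ranged from 86.7 to 259 in TBI cortex, from 145.3 to 266 in Control cortex, from 72.9 to 242 in TBI thalamus and from 59.7 to 225 in Control thalamus. Its r was 0.780 (exact p = 0.00395; rho = 0.769, exact p = 0.00719; r = 0.775 without rats 52 and 45) and 0.816 with the depth covariate. miR-30d-3p, the minor arm of a miR-30 family hairpin, had only 7.92 to 30.8 CPM in cortex and 7.43 to 23.1 CPM in thalamus, and r = 0.780 (exact p = 0.00198; rho = 0.657, exact p = 0.0339; r = 0.782 without rats 34 and 22). The whole miR-30 family of 11 tested members had a median r of 0.273. All 11 were above 0 (82.1% over all 335) and miR-30d-3p alone was below 0.05 (9.09%, against 13.7% over all 335).

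The Dlk1-Dio3 locus, an imprinted region dense in miRNAs that are expressed in brain, had 60 of the 80 listed miRNAs tested. Of these, 52 had r above 0 and 5 (8.33%, against 13.7% over all 335) had an unadjusted p below 0.05, and the median r was 0.395 (0.337 over all miRNAs), with 0.637 in TBI and 0.0310 in Control. For miR-411-5p the lowest, median and highest CPM were 2236, 2812 and 4816 in TBI cortex, 3271, 3790 and 3889 in Control cortex, 2073, 3508 and 5151 in TBI thalamus, and 3655, 4663 and 6326 in Control thalamus. TBI rat 63 was the highest and TBI rat 45 the lowest of its group in both regions. Its r was 0.727 (exact p = 0.0207; rho = 0.608, exact p = 0.0591; r = 0.339 without these 2 rats), with 0.925 in TBI and -0.229 in Control. The other arm, miR-411-3p, had r = 0.604 (exact p = 0.0101), with 0.782 in TBI and 0.654 in Control.

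The same run of hairpins (31 within chr6:134543445-134579838, 40 mature miRNAs tested) held miR-758-3p, which was not on the list of the locus. It ranged from 68.6 to 96.4 CPM in TBI cortex, from 47.8 to 88.9 CPM in Control cortex, from 162 to 226 CPM in TBI thalamus and from 122 to 297 CPM in Control thalamus. Its r was 0.840 (exact p = 0.00295; rho = 0.706, exact p = 0.0144; r = 0.546 without rats 55 and 34), and 0.215 with depth as a covariate. On the list, miR-539-5p had r = 0.710 (exact p = 0.0133), and 0.323 without rats 55 and 56. Named after their values were seen, miR-136-3p and miR-485-5p had r = 0.627 each (exact p = 0.0477 and 0.0393), and 0.590 and 0.0951 with depth as a covariate. With depth as a covariate the median r of the list was 0.150, against 0.152 over all miRNAs.

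Red cell miRNAs were sparse, and the 4 listed summed to 10.8 to 100.3 CPM in a library. Of these 4, only miR-451-5p passed the CPM minimum, with 14.9, 32.1 and 73.7 CPM as lowest, median and highest in TBI cortex, 17.4, 23.5 and 33.7 in Control cortex, 3.80, 22.9 and 51.8 in TBI thalamus, and 13.4, 19.8 and 34.8 in Control thalamus. TBI rat 52 was the lowest of its group in both regions, and the groups overlapped. Its r was 0.748 (exact p = 0.0205; rho = 0.741, exact p = 0.0286; r = 0.593 without rats 22 and 52) and 0.797 with depth as a covariate. The 6 listed leukocyte and microglia miRNAs summed to 652 to 2324 CPM. The 4 of them tested had a median r of 0.351 and none below 0.05, against 13.7% over all 335. The largest r was that of miR-150-5p (r = 0.568, exact p = 0.0857). The 4 tested inflammation-induced miRNAs had a median of 0.101, and the glial miR-21-5p had 0.539 (exact p = 0.101).

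The neuronal identity and oligodendrocyte lists had medians below the 0.337 of all miRNAs. The 5 tested neuronal identity miRNAs had a median r of 0.251, which was -0.147 with depth as a covariate, and 1 of them, miR-9a-5p, was below 0.05. The 4 tested oligodendrocyte miRNAs had a median of 0.170, with -0.0895 in TBI and 0.450 in Control, and 3 of the 4 had a larger r in Control. No test of that list's difference was made. The 7 tested synaptic miRNAs (miR-135, miR-138 and miR-218) had a median of 0.407 with 1 below 0.05, the 4 of the activity-regulated miR-132 and miR-212 pair 0.359 with 0, and the 3 muscle-type miRNAs 0.170 with 1. Over all 335 miRNAs 13.7% were below 0.05, so counts this small cannot set any of these lists apart.

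**Figure D5:**
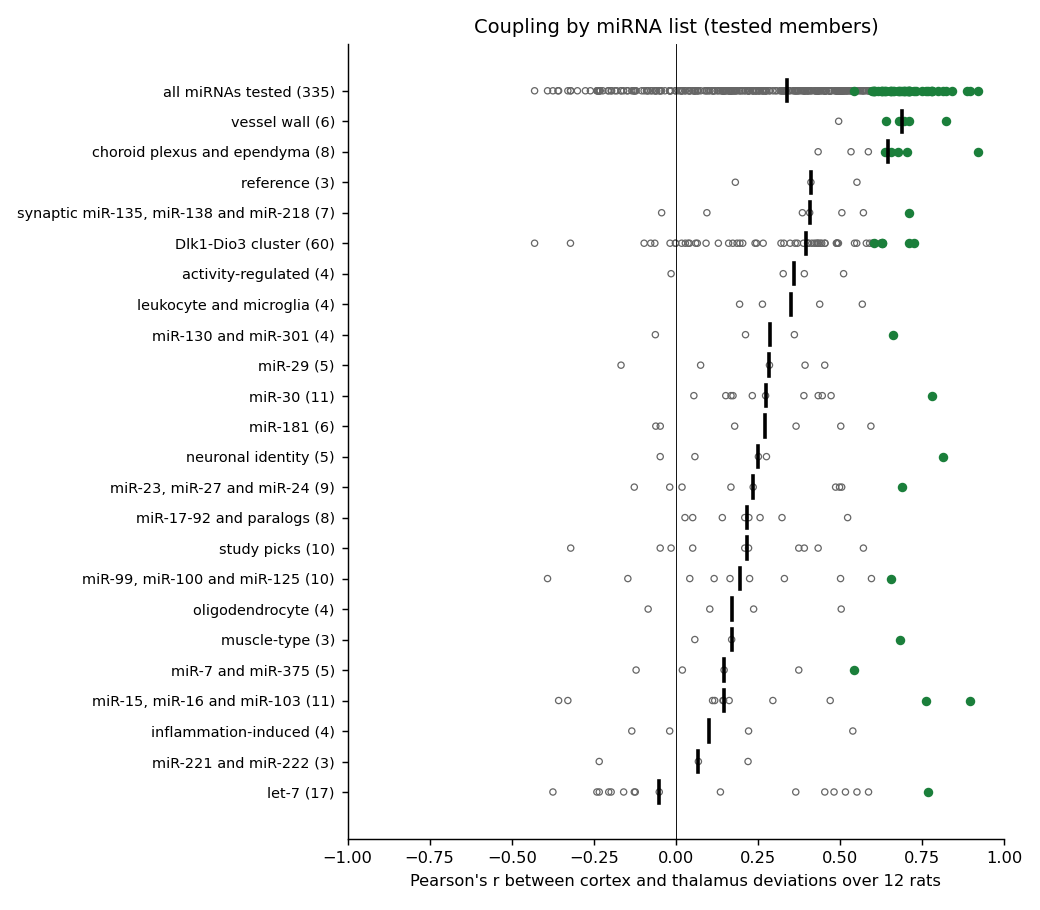
Pearson's r between cortex and thalamus deviations over 12 rats (horizontal axis) for each tested member of the lists with at least 3 tested members (number in brackets); green points have an unadjusted exact p below 0.05, open points do not, and the bar is the median. Vessel wall (0.687) and choroid plexus and ependyma (0.646) have the highest medians, against 0.337 over all 335 miRNAs.

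Among the broad families, let-7 showed how far the scaling and the group entered. Its 17 tested members had a median r of -0.0507, with 0.620 in TBI and -0.407 in Control, but the median was 0.394 with TMM factors, 0.316 with DESeq2 size factors and 0.335 without Control rat 55, so its direction over the 12 rats depended on the scaling and on that rat. In all 17 the r was larger in TBI, against 81.8% of all miRNAs tested. let-7d-3p alone was below 0.05 (5.88% of the family, against 13.7% over all 335). Its r was 0.769 (exact p = 0.00754), and -0.146 with the leading axis removed. The families and clusters of miR-17-92, miR-29, miR-99/100/125, miR-181, miR-23/27/24 and miR-15/16/103 had medians from 0.145 to 0.285 with 0 to 2 members each below 0.05. Those of miR-130/301 (0.286), miR-7 and miR-375 (0.147), miR-221/222 (0.0685), miR-26 (0.0139) and the Hox-embedded miRNAs (0.143) had 0 or 1. The 2 tested members of the miR-183 cluster had r of 0.532 and 0.665, neither below 0.05. With so few members, these counts cannot be set apart from the 13.7% over all 335.

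The miRNAs with the smallest p for a difference between the groups had a larger r in TBI than in Control. miR-24-3p, of the miR-23/27/24 cluster, had 7077, 8383 and 10790 CPM as lowest, median and highest in TBI cortex, 6600, 7006 and 7349 in Control cortex, 5558, 6526 and 9316 in TBI thalamus, and 4365, 5715 and 8941 in Control thalamus. TBI rats 52 and 63 were the 2 highest of their group in both regions, while Control rat 55 was the highest of its group in cortex and the lowest in thalamus. Over the TBI rats r was 0.961 (exact p = 0.00278) and over the Control rats -0.626 (exact p = 0.246), a difference with an unadjusted exact p of 0.00433. miR-342-5p had 0.823 and 0.252, with the same exact p of 0.00433, and miR-30d-3p had 0.972 and 0.551, with the exact p of 0.00866 that it shared with miR-145-3p.

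For miR-192-5p, best known from gut, liver and kidney epithelium, CPM ranged from 374 to 487 in TBI cortex, from 296 to 577 in Control cortex, from 557 to 1004 in TBI thalamus and from 701 to 1250 in Control thalamus. Control rat 55 was the lowest in cortex and the highest in thalamus, and TBI rats 52 and 45 were the 2 lowest of their group in cortex and in thalamus. Its r was 0.965 in TBI (exact p = 0.00139) and -0.922 in Control (exact p = 0.00694), a difference with an unadjusted exact p of 0.00649. Over the 12 rats r was -0.238, and 0.332 without Control rat 55. miR-1843-5p, with 0.934 and -0.717 (exact p of the difference 0.00649), had a direction over the 12 rats that depended on the scaling, at 0.371 by miRNA reads, -0.0732 with TMM factors and -0.0139 with DESeq2 size factors. None of these passed adjustment (exact permutation test, adjusted p = 0.483 for each).

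No miRNA ran against itself between regions at an unadjusted p below 0.05 over the 12 rats. The most negative r was that of miR-543-3p, a Dlk1-Dio3 miRNA, at -0.430 (exact p = 0.158; rho = -0.524, exact p = 0.0916; r = -0.829 without rats 34 and 22). It ranged from 2319 to 2744 CPM in TBI cortex and from 2755 to 3592 CPM in Control cortex, without overlap, and from 2425 to 4537 and 2938 to 4732 CPM in thalamus. Its r was -0.835 in TBI (exact p = 0.0403) and -0.0889 in Control. It was the 1 miRNA with a negative r at an unadjusted p below 0.05 over the TBI rats. The next, miR-100-5p (-0.391) and the let-7 relative miR-98-5p (-0.375), had r of 0.230 and 0.288 without Control rat 55. The r of miR-543-3p was -0.560 (exact p = 0.0432) and that of miR-98-5p -0.684 (exact p = 0.0391) with depth as a covariate, so both passed 0.05 unadjusted there.

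The most abundant miRNA, miR-128-3p, ranged from 173217 to 208448 CPM in TBI cortex and from 209022 to 328446 CPM in Control cortex, and from 80723 to 156055 and 116136 to 206122 CPM in thalamus. Its r was -0.0478 (exact p = 0.892; rho = 0.294, exact p = 0.356), and 0.570 without Control rat 55 (exact p = 0.0101), the rat with the highest value in thalamus and the lowest of its group in cortex. The ubiquitous miR-26a-5p, from 58236 to 74412 CPM in cortex and from 56884 to 88056 CPM in thalamus, had r = 0.235 (exact p = 0.441). Since CPM are shares of a library, the level of such a miRNA also moves the CPM of the rest.

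The miRNAs that the study used as PCR references and those it followed up lay on both sides of the median r of all miRNAs. The 3 tested references had r of 0.181, 0.411 (miR-378a-3p) and 0.551 (let-7b-3p), the last -0.153 with depth as a covariate and -0.0211 without rats 55 and 56. The 10 tested of the 12 followed-up miRNAs, which the study picked on these samples, had a median r of 0.216. None was below 0.05, against 13.7% over all 335, and 10 miRNAs are too few to set them apart from that share. Their r ran from -0.320 for miR-339-5p to 0.571 for miR-135a-3p (exact p = 0.0602). The r of miR-211-5p was 0.433 (exact p = 0.231). In 9 of the 10 the r was larger in TBI than in Control, as it was in 81.8% of all miRNAs tested.

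A rat that serves as its own partner can also sharpen the comparison of injury effects between regions. The difference of the TBI effect between thalamus and cortex was tested over all 24 libraries with edgeR's quasi-likelihood test. Of 407 miRNAs, 0 passed Benjamini-Hochberg adjustment (edgeR, 0.0% called, smallest adjusted p = 1.00) and 16 had an unadjusted p below 0.05. With the rat as replicate block, 0 passed (edgeR, 0.0% called, smallest adjusted p = 0.419) and 19 were below 0.05, and DESeq2 passed 0 of 613 with 19 below 0.05. The within-rat correlation that limma estimated over these 407 miRNAs was 0.293, with 0.526 in the TBI rats and 0.0416 in the Control rats.

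The CPM tables with tRNA features, of which a feature is 1 annotated tRNA gene with all its fragments, showed a weaker match of the same kind. Of 250 features in both tables, 231 reached 10 CPM in both regions. Their mean same-rat r was 0.212 (exact permutation test, p = 0.0221), with 0.385 ± 0.245 in TBI and 0.0384 ± 0.335 in Control (SD, n = 6 each; difference 0.347, exact permutation p = 0.0649). Single features had a median r of 0.167, and 17 (7.36%) had an unadjusted exact p below 0.05, 14 of them with r above 0, whereas 0 passed adjustment (exact permutation test, smallest adjusted p = 0.170). Copies of a tRNA gene share reads, so features are not independent.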

How the data were processed

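The data were small RNA sequences of 24 libraries, a perilesional cortex and an ipsilateral thalamus from each of 12 rats. According to the study's methods, adapters were trimmed at base calling, quality was checked with FastQC, and reads were mapped to RGSC3.4 and annotated with miRBase; the aligner is not given in the sources used here. The authors deposited whole read counts per miRNA for each region, used here as counts. They also deposited CPM tables: those with tRNA features were used for these features alone, and those with miRNAs alone were not used, since the counts hold the same libraries. The deposited CPM of cortex were the counts over 1 constant per library (606 features, largest difference 4.66e-10 CPM). No column was without a sample.

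Counts were divided by the miRNA reads of the library (523298 to 4139901) and multiplied by 1000000. For miRNAs with a mean of at least 10 CPM in each region, log2(CPM + 1) minus the mean of the 4 groups was correlated between regions (Python 3.11.15, numpy 2.4.6, scipy 1.17.1). Each permutation p-value was two-sided and is called exact because all cases were enumerated. For r these were all 518400 assignments of thalamus to cortex within groups. For TBI against Control they were all divisions of the 12 rats into 6 and 6, with a smallest possible p of 0.00216. In these divisions the deviations stayed centred on the original groups, so p for a difference of r between TBI and Control is approximate. Adjustment was by Benjamini-Hochberg over 335 miRNAs, with a threshold of 0.05. The TBI effect in thalamus was set against that in cortex with edgeR 4.0.16 (filterByExpr, TMM; R 4.3.3), with DESeq2 1.42.0 and the rat block as alternatives, and the within-rat correlation with limma 3.58.1. The permutation tests and the edgeR test were tested on simulated data. A floor was 3 reads and covers counting error alone, because copies made by PCR are not separate molecules.

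The rat number in the labels pairs the libraries, since both regions come from 1 animal. In the values, the same-rat r was above 0.1 in 8 of 12 rats. That r is the measure under study and different rats of a group reached 0.752, so it cannot check the pairing. Labels give each rat as a separate sample of its group.

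Members and lists were chosen with earlier results of these data known. Named were the 10 miRNAs with the smallest exact p, the 3 most negative r, the 5 smallest exact p of the difference, the 3 most abundant of each region, the reference and followed-up miRNAs, and up to 3 members with the largest r of each list described; exceptions are marked in the text. Alternatives were other scalings (TMM, DESeq2), pseudocounts, CPM minima, rank correlation, depth as a covariate, removal of the leading axis, each miRNA divided by its SD, and each rat left out in turn. Leaving out rats 55 and 56 together, thinning, and removing the leading axis per miRNA were chosen after seeing the data. Of the 335 miRNAs, 302 (90.1%) had a sequence in RefSeq (GRCr8).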

Additional observations from a re-analysis of the deposited data

Results flagged for a closer look

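A sample stood far from the other 5 of its group in 9 of 86 groups of 6 values examined (a wide gap to the nearest sample relative to the range of the group). For independent groups not chosen by their values, chance would give about 1 in 20, or 4.3. The groups here share rats, and many hold miRNAs chosen for a small p, so 4.3 is only a rough guide. The same-rat r of TBI rat 63 was 0.349, against 0.601 to 0.717 in the other TBI rats. TBI rat 45 had 508 CPM of miR-450a-5p in thalamus, with 96.6 to 226 in the others. The same rat had 1115 CPM of miR-34c-5p in cortex, where the others had 267 to 538, and 6738 CPM in thalamus, where they had 1157 to 2161. Control rat 34 had 150.0 CPM of miR-322-3p in thalamus, 30.8 CPM of miR-30d-3p in cortex and 240.5 CPM of miR-450a-5p in cortex, with 86.0 to 108, 9.40 to 16.1 and 146 to 177 CPM in the other Control rats. Control rat 55, the shallowest thalamus library, had a leading-axis score of 17.0 in thalamus, against -6.83 to 2.06, and 206122 CPM of miR-128-3p there, against 116136 to 137587.

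The same-rat r differed between TBI and Control by 0.540 in the mean (exact permutation test over all divisions of the rats, p = 0.00649).

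The tRNA features of the CPM tables, which lie outside the comparisons of miRNAs, had a mean same-rat r of 0.212 (exact permutation test, p = 0.0221).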

How the results depend on the processing

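Of 153 alternative values of the summary results (the counts of coupled and differing miRNAs, the same-rat r, its difference between groups, the leading axis and the edgeR interaction), 141 kept their direction and their side of the threshold, or lay within 1.5 times for a count. With depth as a covariate the mean same-rat r was 0.174, the leading axis r 0.204 and the number of miRNAs at an unadjusted p below 0.05 was 21; the axis r was 0.339 without rats 55 and 56; the cause was not tested. Adjustment was passed by 1 miRNA with the leading axis removed and by 1 in moderated regression, against 0 in the analysis as reported. With each rat left out in turn, 0 to 1 passed adjustment, 26 to 74 had an unadjusted p below 0.05 (26 without TBI rat 56, 74 without Control rat 55), the mean same-rat r was 0.301 to 0.402, its difference 0.461 to 0.636 and the axis r 0.492 to 0.688. With the rat as replicate block the edgeR interaction passed 0 miRNAs, as without it; the block was run for that result alone. With each miRNA divided by its SD the axis r was 0.485. The alternatives were followed for 44 miRNAs, and not for miR-503-3p and miR-322-5p, which are also named with an r. Of these 44, 34 kept their sign in every alternative run. The others reversed as follows: with depth as a covariate miR-100-5p 0.00978, miR-126a-5p -0.123 and let-7b-3p -0.153; without rats 55 and 56 miR-100-5p 0.467, miR-192-5p 0.278, miR-128-3p 0.467, miR-339-5p 0.329 and let-7b-3p -0.0211; with the leading axis removed miR-100-5p 0.213, miR-128-3p 0.0771, miR-339-5p 0.126 and let-7d-3p -0.146; with TMM and DESeq2 scaling miR-1843-5p -0.0732 and -0.0139. With rats left out in turn the ranges were -0.659 to 0.230 for miR-100-5p, -0.603 to 0.288 for miR-98-5p, -0.429 to 0.332 for miR-192-5p, -0.219 to 0.570 for miR-128-3p and -0.626 to 0.264 for miR-339-5p, each above 0 without Control rat 55, and -0.0801 to 0.708 for miR-204-5p, below 0 without TBI rat 45. With 6 rats a group, p for a difference could not go below 0.00216, and miRNAs near the CPM minimum rested on few reads.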

Other observations

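The arms cut from a hairpin were also compared with each other. The comparison covered the 93 hairpins whose arms were both tested and both had a RefSeq sequence, and left out the others. Of these 93, 4 had an unadjusted p below 0.05 on both arms (miR-126a, miR-145, miR-34b and miR-411) and 18 on 1 arm. Across them the r of the arms correlated with r = 0.0338, a description across genes that share libraries. The 41 of the 46 miRNAs below 0.05 with a sequence had 40 different seeds. Across miRNAs, the loadings on the leading axis correlated between cortex and thalamus with r = 0.732. The GC content of the mature sequence correlated with that loading in cortex (r = 0.470) and thalamus (r = 0.404), and with the coupling itself at r = -0.0512.

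The share of tRNA in the small RNA tables showed no detectable match within rats. It ran from 6.47% to 18.1% in TBI cortex, from 6.10% to 14.5% in Control cortex, from 10.1% to 17.7% in TBI thalamus and from 8.26% to 16.7% in Control thalamus. With group means removed, its log2 values had r = 0.0205 between the regions of a rat (exact permutation test, p = 0.951; rho = -0.126, exact p = 0.697; r = -0.435 without the 2 rats farthest from the median).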
